A study of Mus musculus with 16 samples.

Results

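The genes described here are 52 genes of mitosis and cytokinesis, the steps in which a cell separates its copied chromosomes and then splits in 2. They were taken by name: every spot of the array that is no control and whose gene name is on the list was followed over genotype and time. All 52 have a probe among the 34741 gene names of the array, with 83 spots and 74 distinct probes in all. Each gene is given by its brightest probe, and 51 of the 52 could be tested. Aurkb could not, because its only probe was not well above background in either colour on any of the 16 arrays.

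A resting B cell holds little mRNA of these genes. After it is stimulated it copies its DNA, and in the following G2 phase it transcribes the mitotic genes, many of which are repressed in resting cells by the DREAM complex and switched on by B-Myb (Mybl2) and Foxm1. DREAM and its activating counterparts bind promoters through a cell cycle homology region, the CHR, often with CCAAT boxes upstream that bind NF-Y. Many of the proteins are destroyed at the end of mitosis and made anew in the next cycle.

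RNA came from spleen B cells of the AM14 strain, whose antigen receptor binds IgG. The 4 genotypes were WT, Tlr7-/-, Tlr9-/- and Tlr7/9-/-, written below as WT, Tlr7 KO, Tlr9 KO and Tlr7/9 KO. Tlr7 encodes an endosomal receptor for RNA and Tlr9 one for DNA. Cells were taken unstimulated (0 h) or after 6, 24 or 42 h of PL2-3, a monoclonal antibody of the IgG class that binds chromatin, and the series asks how TLR9 within autoreactive B cells bears on responses through the antigen receptor and TLR7. All 16 groups carry the AM14 receptor, and each was read on 1 array, with sample RNA in Cy5 and, in Cy3, a common pool made of unstimulated B cell RNA of every genotype. The sources used here give no sex, age, purification, PL2-3 dose or pooling of mice. Every later array is of cells given PL2-3, and its effect cannot be told apart from that of the hours in culture.

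The promoters of several members show the sequence elements that this gene class is known for, and 6 are printed here because they cover the main patterns in the data. Cdc20, Ccnb2, Cdk1 and Plk1 rose by 42 h, Mybl2 was higher by 6 h in the fit of 3 genotypes described below, and Cdc25b fell at 6 h. Each runs 5′ to 3′ from 250 bases before to 50 bases after the RefSeq gene start, on the GRCm38.p6 build. Capitals mark the CHR core, searched as TTTGAA or TTCGAA, and the CCAAT box, each on both strands, so that TTCAAA and ATTGG are the same elements read from the other strand.
Cdc20: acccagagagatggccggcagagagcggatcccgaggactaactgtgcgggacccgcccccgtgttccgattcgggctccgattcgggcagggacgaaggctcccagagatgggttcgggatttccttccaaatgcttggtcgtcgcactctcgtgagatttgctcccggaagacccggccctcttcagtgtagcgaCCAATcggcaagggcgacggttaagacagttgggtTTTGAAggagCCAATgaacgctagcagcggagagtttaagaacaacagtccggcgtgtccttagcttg
Ccnb2: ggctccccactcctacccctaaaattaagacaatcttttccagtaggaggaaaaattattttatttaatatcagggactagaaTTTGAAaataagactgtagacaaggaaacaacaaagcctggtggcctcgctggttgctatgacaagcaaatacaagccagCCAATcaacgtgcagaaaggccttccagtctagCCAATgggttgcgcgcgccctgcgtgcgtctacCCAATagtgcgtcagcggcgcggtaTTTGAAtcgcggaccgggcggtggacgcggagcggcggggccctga
Cdk1: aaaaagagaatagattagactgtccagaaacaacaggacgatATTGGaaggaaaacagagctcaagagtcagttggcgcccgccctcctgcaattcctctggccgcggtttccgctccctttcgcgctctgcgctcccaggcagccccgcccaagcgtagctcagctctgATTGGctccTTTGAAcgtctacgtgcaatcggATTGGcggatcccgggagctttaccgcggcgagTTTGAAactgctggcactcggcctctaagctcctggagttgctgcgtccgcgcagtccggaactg
Plk1: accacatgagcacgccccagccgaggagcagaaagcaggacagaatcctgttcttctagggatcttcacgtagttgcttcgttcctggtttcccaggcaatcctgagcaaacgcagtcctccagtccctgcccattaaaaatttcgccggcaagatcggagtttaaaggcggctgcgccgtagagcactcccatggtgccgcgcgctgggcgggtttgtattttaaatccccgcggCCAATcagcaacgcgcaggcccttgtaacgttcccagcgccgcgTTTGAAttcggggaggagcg
Mybl2: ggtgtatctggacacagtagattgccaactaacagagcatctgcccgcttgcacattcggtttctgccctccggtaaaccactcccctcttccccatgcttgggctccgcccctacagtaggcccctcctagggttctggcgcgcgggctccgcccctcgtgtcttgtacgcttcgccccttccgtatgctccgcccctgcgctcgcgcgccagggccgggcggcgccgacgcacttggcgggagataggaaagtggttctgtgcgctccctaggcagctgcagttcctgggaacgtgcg
Cdc25b: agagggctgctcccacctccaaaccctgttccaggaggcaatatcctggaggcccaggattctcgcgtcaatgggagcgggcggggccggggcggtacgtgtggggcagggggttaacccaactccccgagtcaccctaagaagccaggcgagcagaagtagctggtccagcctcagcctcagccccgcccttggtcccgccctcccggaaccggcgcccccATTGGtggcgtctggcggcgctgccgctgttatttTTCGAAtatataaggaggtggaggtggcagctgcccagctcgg

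These lie at chr4:118437294-118437593 (Cdc20, minus strand), chr9:70421505-70421804 (Ccnb2, minus strand), chr10:69352863-69353162 (Cdk1, minus strand), chr7:122159185-122159484 (Plk1, plus strand), chr2:163054385-163054684 (Mybl2, plus strand) and chr2:131186698-131186997 (Cdc25b, plus strand). Of the 52 members, 43 had a promoter in the RefSeq table. A CHR core in either form stood in 32 of the 43 (74.4%), against 19.4% of the 27025 promoters of all genes. TTTGAA was in 30 (69.8%, against 18.1%) and TTCGAA in 4 (9.3%, against 1.57%). CCAAT stood in 32 members (74.4%, against 37.9%), and 20 members held at least 2 of them (46.5%, against 12.2%). Both elements stood together in 29 of the 43 (67.4%, against 7.7%). In 28 members (65.1%, against 5.68%) a CHR core began between 60 bases before and 40 bases after the start. The E2F form TTCGCGC was in 2 members (4.65%, against 1.59%). Top2a held the most CHR matches, 4, and Top2a and Ube2c held the most CCAAT matches, 6 each. Neither element was found in Mybl2, Birc5, Mad2l1, Melk, Ncaph, Nuf2, Nusap1 or Pttg1. These are matches of letters, not measured binding, and a window without a match says only that these letters are not in it.

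**Figure D1:**
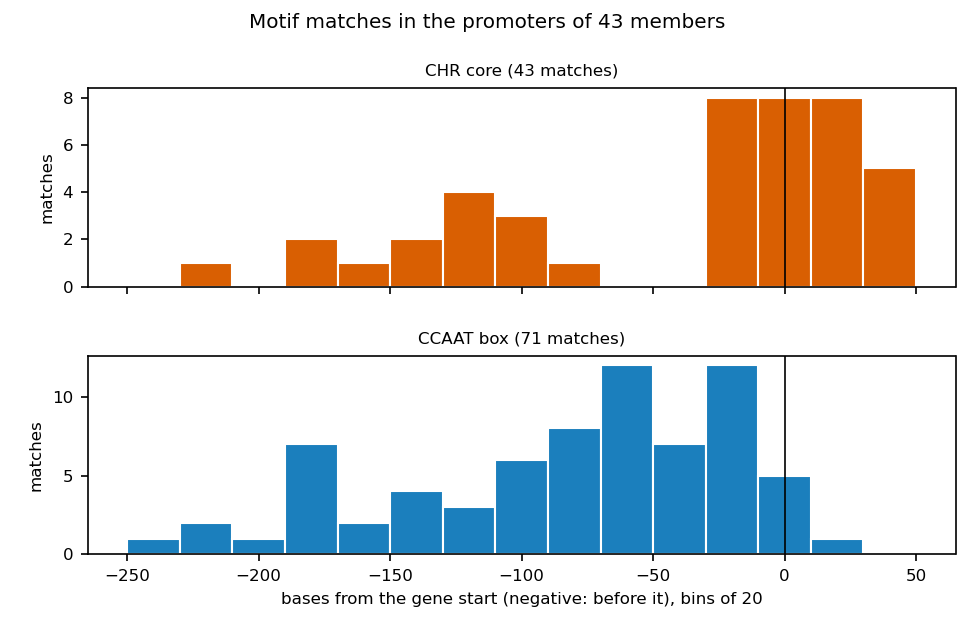
Positions of the 43 CHR core matches (top) and 71 CCAAT matches (bottom) in the promoters of 43 members, as bases from the gene start in bins of 20, with the number of matches on the y axis. CHR matches cluster around the start, and CCAAT matches lie mostly before it.

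Between 37.4% and 62.7% of the spots were well above background in Cy5 on each array, the fewest on the Tlr9 KO 0 h array, and no spot was saturated. The arrays sit on 2 slides: slide 1 holds WT and Tlr7 KO, slide 2 holds Tlr9 KO and Tlr7/9 KO, so the presence of Tlr9 and the slide cannot be told apart. Of 3 Tlr7 probes, 2 were lower in both genotypes labelled as lacking it (-1.23 and -1.09 at 0 h on 1 of them, against 0.87 in WT), while the single Tlr9 probe was at 0.04 and -0.06 in the genotypes labelled as lacking that gene and at -0.08 in WT. Whether the Tlr9 probe lies in the deleted stretch is not stated in the labels. On the WT 42 h array, 93 of 672 blocks of spots (13.8%) had a pool signal more than 1 log2 step below its usual level, and 10 spots of members lie there. The Tlr9 KO 0 h array had 19 such blocks (2.83%) with 2 spots of members, and the Tlr7 KO 6 h array 1 block with 0. Those 2 arrays were kept whole in every fit that used them, and the dim area named below is that of the WT 42 h array. The arrays labelled Tlr9 KO 24 h and 42 h stand apart: for these genes they run opposite to the other genotypes. Whether their order is right was not tested, and the labels are kept. Most counts of members called are given with and without them. Differences of single members against 0 h come from the fit with them unless stated, so a member that did not pass may do so because of these arrays. B cell markers checked the label: all 9 tested were well above background in Cy5 on every array, though their median was near 0 at 0 h and between -2.50 and -1.36 with PL2-3. Myeloid, NK and plasmacytoid, erythroid and T cell markers also had lower medians on every stimulated array than on their 0 h array (myeloid -2.23 to -1.33, erythroid -1.40 to -0.94, NK and plasmacytoid -1.03 to -0.65, T cell -0.74 to -0.19). At 0 h, 14 or 15 of the 15 myeloid and 9 to 11 of the 11 T cell markers were above background in Cy5, and their part in the results below was not tested.

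Below, values listed for a gene are log2 of sample over pool at 0, 6, 24 and 42 h, in that order, so 0 means the level of unstimulated cells and 1 a doubling. With 1 array per group there are no replicates. The fits over time use WT, Tlr7 KO and Tlr9 KO as stand-ins for replicates. Their p-values set the mean time difference only against how far those genotypes differ in their response. In RNA of whole cultures, fewer cells of a type and less RNA per cell cannot be told apart.

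Most of these genes rose by 24 h and were high at 42 h. The median of the 51 members was within 0.06 of the pool at 0 h on every array and between -0.14 and -0.08 at 6 h. At 24 h it reached 1.94 in WT, 1.82 in Tlr7 KO, 3.01 in Tlr9 KO and 0.56 in Tlr7/9 KO. At 42 h it was 3.02, 3.38, 0.82 and 2.29. WT, Tlr7 KO and Tlr7/9 KO were thus highest at 42 h, Tlr9 KO as labelled was highest at 24 h, and the array labelled Tlr7/9 KO was the lowest of the 24 h arrays.

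**Figure D2:**
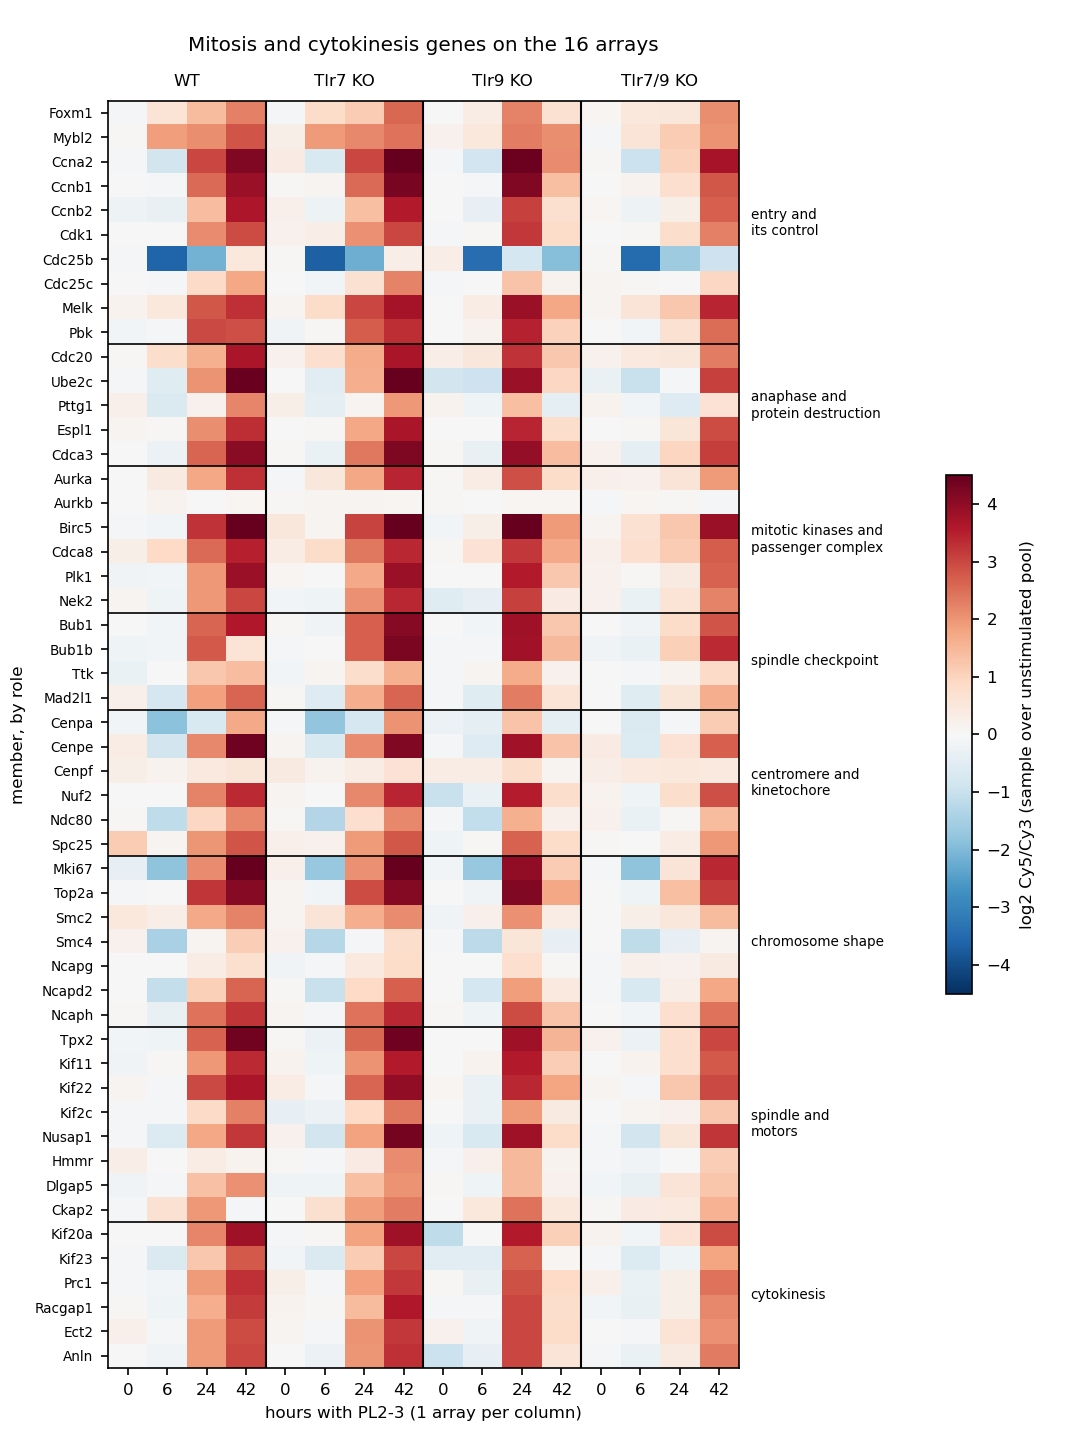
Log2 ratio of sample over unstimulated pool (colour, red higher and blue lower) for all 52 members (lines, by role) on the 16 arrays (columns, by genotype and hours with PL2-3). The 24 h and 42 h columns are red for nearly every member, palest at 24 h in Tlr7/9 KO, and Cdc25b is blue at 6 h in all genotypes.

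In the fit over WT, Tlr7 KO and Tlr9 KO, 41 of the 51 members rose and 1 fell at 24 h against 0 h at a limma adjusted p under 0.05, where 22.7% of the 22490 genes tested rose and 26% fell. Their median difference was 2.15 on the log2 scale, against 0.01 over all genes tested. It was 1.35 with Tlr7/9 KO in place of Tlr9 KO, and 2.98 when arrays were centred on their median in place of loess. At 42 h, 44 rose and none fell, with Cdc25b the only member below 0, where 17.3% of genes rose and 20.7% fell, with a median of 2.46 against 0.00. All 51 but Cdc25b had a positive difference at both times. Leaving out WT or Tlr7 KO lost calls. Without WT, 24 members rose at 24 h (16.3% of genes) and 7 at 42 h (10.4% of genes). Without Tlr7 KO, 28 rose at 24 h (17.2% of genes) and 8 at 42 h (9.35% of genes). At 42 h the share of members that rose was then near that of all genes, though 50 of the 51 differences were still above 0 in both fits. Without the Tlr9 KO arrays 45 rose and 2 fell at 24 h, where 27.6% of genes rose and 30.4% fell. At 42 h 48 then rose, where 22.1% of genes rose. With median centring, 46 members rose at 24 h and none fell. The median of all genes was then 0.23 at 24 h, and rises made up 77% of all genes' calls in place of 46.6% (58.6% in place of 45.6% at 42 h). With the scanner's processed signals they made up 38.7% and 32.7%, and 40 and 42 members rose.

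**Figure D3:**
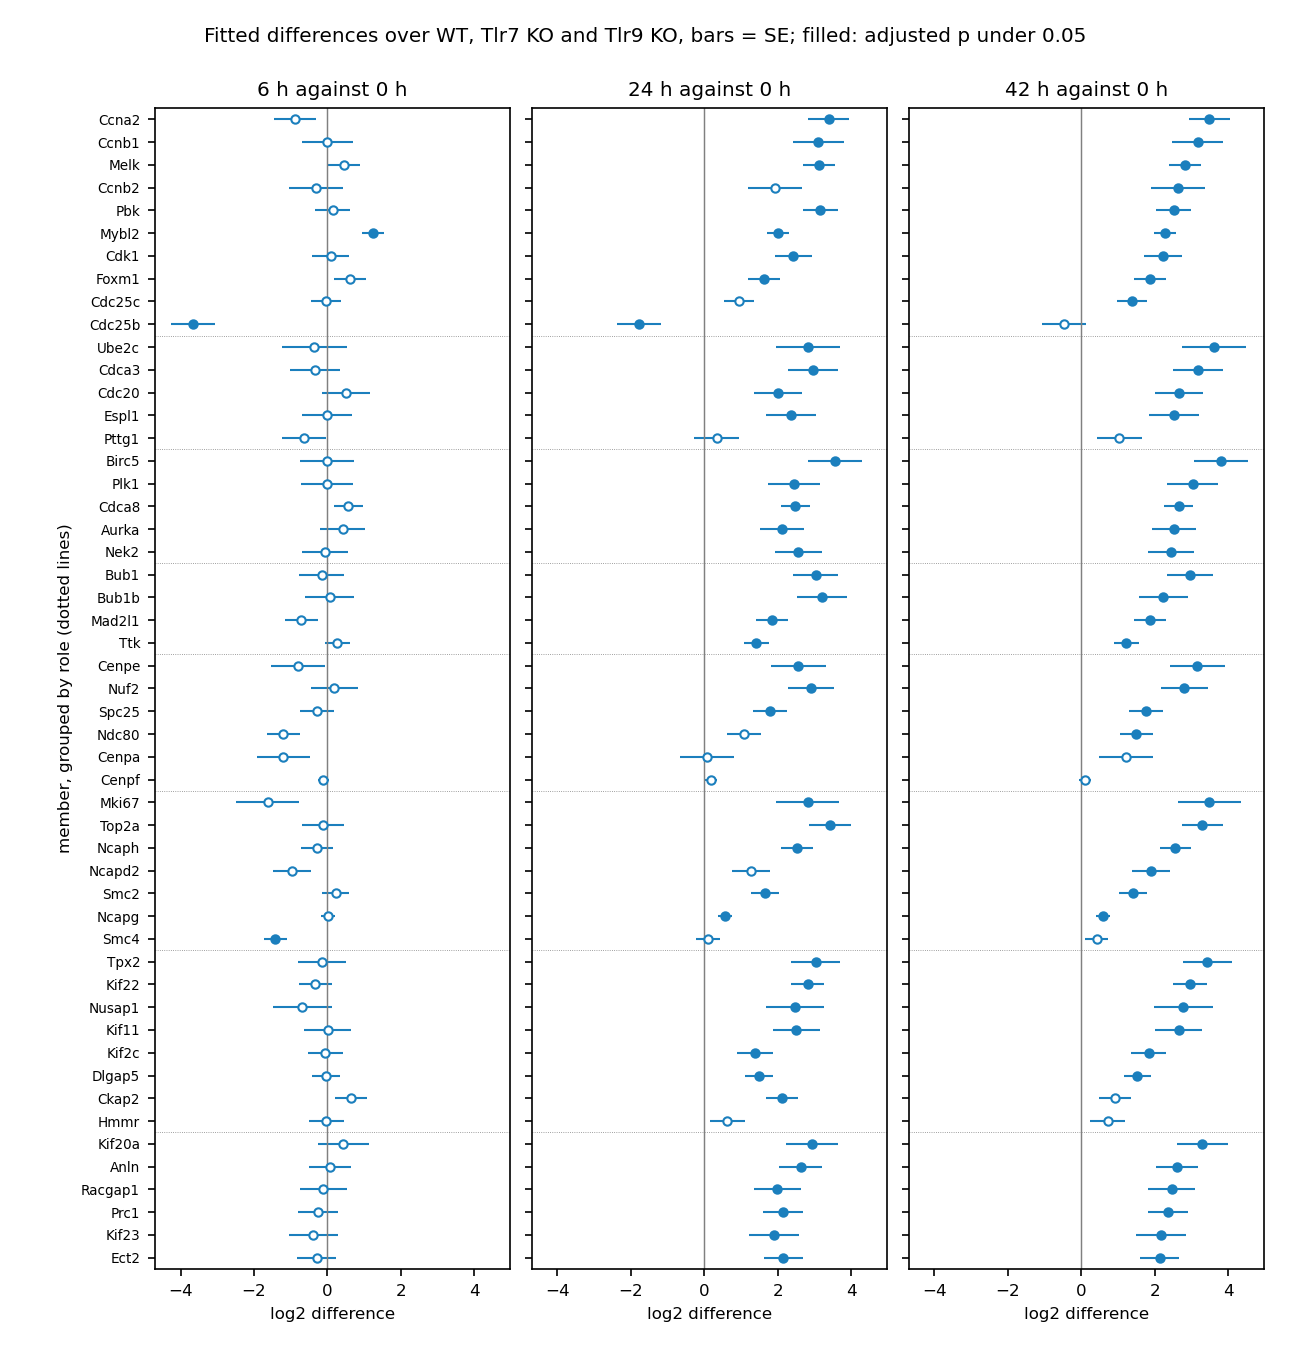
Fitted log2 difference (x axis) of each tested member (y axis, grouped by role) at 6, 24 and 42 h against 0 h over WT, Tlr7 KO and Tlr9 KO. Bars are standard errors and filled points passed an adjusted p of 0.05, which 3 members did at 6 h, 42 at 24 h and 44 by 42 h.

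The first group decides when a cell enters mitosis: the transcription factors Foxm1 and Mybl2, the cyclins with their kinase Cdk1, the phosphatases Cdc25b and Cdc25c that switch Cdk1 on, and the kinases Melk and Pbk. Of its 10 members 7 rose and 1 fell at 24 h, and 9 rose at 42 h. For this and the role groups below, the shares of all genes are those of the same fit. At 24 h 22.7% rose and 26% fell, and at 42 h 17.3% rose and 20.7% fell. Foxm1 read -0.04, 0.63, 1.43 and 2.28 in WT, -0.06, 0.81, 1.14 and 2.58 in Tlr7 KO, -0.01, 0.34, 2.23 and 0.68 in Tlr9 KO and 0.10, 0.46, 0.52 and 2.09 in Tlr7/9 KO. It was above the pool at 6 h on every array, and among the late arrays Tlr7/9 KO 24 h and Tlr9 KO 42 h were low. Its fitted difference was 1.63 ± 0.44 at 24 h (adjusted p = 0.0121) and 1.88 ± 0.44 at 42 h (adjusted p = 0.00819). Mybl2 measured 0.06, 1.87, 2.09 and 2.84 in WT, 0.27, 1.90, 2.17 and 2.46 in Tlr7 KO, 0.20, 0.47, 2.29 and 2.08 in Tlr9 KO and -0.04, 0.57, 1.13 and 2.01 in Tlr7/9 KO. The WT and Tlr7 KO arrays were high from 6 h on, and the Tlr9 KO and Tlr7/9 KO arrays were low at 6 h. It rose by 1.24 ± 0.30 at 6 h (adjusted p = 0.00648), which did not pass without WT or without Tlr7 KO (adjusted p = 0.0978 and 0.0984). Later it rose by 2.01 ± 0.30 at 24 h (adjusted p = 0.000383) and 2.28 ± 0.30 at 42 h (adjusted p = 0.000298). A second Mybl2 probe split the same way at 6 h, with 2.24 and 2.46 against 0.52 and 0.82. Its late course differed from that of the brightest probe. At 24 and 42 h the second probe read 2.98 and 2.67 in WT and 2.69 and 3.05 in Tlr7 KO. In Tlr9 KO it read 3.35 and 1.32, and in Tlr7/9 KO 0.29 and 1.94.

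Cyclin A2 acts in S and G2 phase and the B cyclins in mitosis. Ccna2 stood at -0.05, -0.84, 3.01 and 4.15 in WT, 0.38, -0.67, 2.99 and 4.48 in Tlr7 KO, -0.06, -0.85, 4.40 and 2.12 in Tlr9 KO and 0.06, -0.97, 1.05 and 3.71 in Tlr7/9 KO. All 4 genotypes were below the pool at 6 h and stood far above it at 42 h. It had the steepest rise of the group, 3.38 ± 0.57 at 24 h (adjusted p = 0.000886) and 3.49 ± 0.57 at 42 h (adjusted p = 0.00113). Ccnb1 read -0.02, -0.06, 2.56 and 3.88 in WT, 0.04, 0.13, 2.56 and 4.27 in Tlr7 KO, -0.03, -0.07, 4.16 and 1.34 in Tlr9 KO and -0.03, 0.17, 0.77 and 2.80 in Tlr7/9 KO. Ccnb1 stayed flat at 6 h and then rose by 3.10 ± 0.69 at 24 h (adjusted p = 0.00433) and 3.17 ± 0.69 at 42 h (adjusted p = 0.0055). Ccnb2 measured -0.22, -0.32, 1.39 and 3.65 in WT, 0.22, -0.22, 1.36 and 3.58 in Tlr7 KO, 0.03, -0.38, 3.09 and 0.72 in Tlr9 KO and 0.08, -0.22, 0.26 and 2.70 in Tlr7/9 KO. At 24 h the 3 genotypes of the fit ranged from 1.36 to 3.09, and the difference of 1.93 ± 0.73 did not pass (adjusted p = 0.0537), whereas that at 42 h did, at 2.64 ± 0.73 (adjusted p = 0.0184).

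Cdk1 stood at -0.02, 0.03, 2.14 and 2.94 in WT, 0.18, 0.29, 2.07 and 2.99 in Tlr7 KO, -0.04, 0.06, 3.17 and 0.84 in Tlr9 KO and -0.01, 0.05, 0.78 and 2.27 in Tlr7/9 KO. Its probe was above background in Cy5 on only 8 of the 16 arrays and at none of the 0 h arrays of the fit, so the Cy5 level was at least 6.87-fold higher at 24 h and at least 7.06-fold higher at 42 h, taken against the background level. Its pool signal was above background on no array. The fitted differences were 2.42 ± 0.51 at 24 h (adjusted p = 0.00323) and 2.22 ± 0.51 at 42 h (adjusted p = 0.00747). Both other Cdk1 probes moved far less (0.23 and 0.04 at 42 h), 1 of them above background on no array. Cdc25c read -0.01, -0.08, 0.86 and 1.73 in WT, 0.00, -0.13, 0.67 and 2.22 in Tlr7 KO, -0.06, 0.02, 1.27 and 0.16 in Tlr9 KO and 0.13, 0.06, 0.02 and 0.92 in Tlr7/9 KO. This phosphatase gene was likewise not above background at 0 h, and its bounds were at least 2.22-fold at 24 h and at least 3.3-fold at 42 h. Its fitted difference of 0.95 at 24 h did not pass the adjusted threshold, and that of 1.39 at 42 h did. Melk rose by 3.13 ± 0.44 at 24 h (adjusted p = 0.000316) and 2.83 ± 0.44 at 42 h (adjusted p = 0.000918). Pbk rose by 3.16 ± 0.48 at 24 h (adjusted p = 0.000443) and 2.52 ± 0.48 at 42 h (adjusted p = 0.00255), or at least 9.94-fold and at least 7.7-fold in Cy5.

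Cdc25b moved against the rest of its group. Cdc25b measured -0.08, -3.62, -2.12 and 0.49 in WT, 0.06, -3.66, -2.19 and 0.31 in Tlr7 KO, 0.31, -3.42, -0.79 and -1.90 in Tlr9 KO and 0.04, -3.48, -1.59 and -0.94 in Tlr7/9 KO. It stood between -3.66 and -3.42 on all 4 of the 6 h arrays, was still below the pool on all 4 at 24 h, and at 42 h was above the pool only in WT and Tlr7 KO. The fitted difference was -3.66 ± 0.60 at 6 h (adjusted p = 0.000675) and -1.79 ± 0.60 at 24 h (adjusted p = 0.0318). At 42 h it was -0.46 ± 0.60 (adjusted p = 0.583), and without the Tlr9 KO arrays it was 0.41 ± 0.11 and passed as higher (adjusted p = 0.0127). Its promoter, printed above, holds both a CHR core in the TTCGAA form and a CCAAT box, as 29 of the 43 do.

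Anaphase begins when the anaphase-promoting complex marks securin and the cyclins for destruction. Of 5 members 4 rose at both 24 and 42 h. Cdc20 encodes an activator of that complex. Cdc20 stood at 0.06, 0.80, 1.59 and 3.68 in WT, 0.18, 0.74, 1.68 and 3.67 in Tlr7 KO, 0.30, 0.52, 3.26 and 1.20 in Tlr9 KO and 0.19, 0.45, 0.52 and 2.29 in Tlr7/9 KO. WT, Tlr7 KO and Tlr7/9 KO were higher at 42 h than at 24 h, and the Tlr9 KO arrays ran the other way. Cdc20 rose by 2.0 ± 0.65 at 24 h (adjusted p = 0.0293) and 2.67 ± 0.65 at 42 h (adjusted p = 0.00999). Ube2c encodes the ubiquitin-conjugating enzyme that works with the complex. Ube2c read -0.10, -0.54, 2.03 and 4.43 in WT, 0.02, -0.52, 1.63 and 4.53 in Tlr7 KO, -0.83, -0.94, 3.90 and 0.94 in Tlr9 KO and -0.30, -1.0, -0.08 and 3.06 in Tlr7/9 KO. The Tlr7/9 KO array was still below the pool at 24 h and well above it at 42 h. Ube2c had the largest 42 h difference of this group, 3.61 ± 0.88 (adjusted p = 0.01), after 2.82 ± 0.88 at 24 h (adjusted p = 0.0238), and its second probe gave 3.01 at 42 h. Pttg1 is securin, the inhibitor of separase. Pttg1 measured 0.23, -0.64, 0.21 and 2.18 in WT, 0.26, -0.44, 0.11 and 1.96 in Tlr7 KO, 0.16, -0.18, 1.37 and -0.40 in Tlr9 KO and 0.16, -0.11, -0.58 and 0.66 in Tlr7/9 KO. It was below the pool at 6 h everywhere and reached high values only at 42 h in WT and Tlr7 KO and at 24 h on the Tlr9 KO array. In the fit with the Tlr9 KO arrays it passed at neither time, with 0.34 ± 0.61 at 24 h (adjusted p = 0.68) and 1.03 ± 0.61 at 42 h (adjusted p = 0.217). On single arrays, 42 h less 0 h was 1.95 in WT, 1.69 in Tlr7 KO and -0.56 in Tlr9 KO. The WT 42 h spot lies in the dim area, without which the 42 h difference was 0.47 ± 0.68. Separase itself, Espl1, rose by 2.36 ± 0.68 at 24 h (adjusted p = 0.0163) and 2.53 ± 0.68 at 42 h (adjusted p = 0.0157), and Cdca3, an adaptor for protein destruction at mitotic entry, by 2.95 ± 0.68 at 24 h (adjusted p = 0.00514) and 3.18 ± 0.68 at 42 h (adjusted p = 0.0049).

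Mitotic kinases and the chromosomal passenger complex set up the spindle and correct faulty attachments. All 5 members tested rose at both times. Aurka stood at 0.01, 0.39, 1.74 and 3.30 in WT, -0.06, 0.50, 1.74 and 3.43 in Tlr7 KO, 0.05, 0.34, 2.90 and 0.84 in Tlr9 KO and 0.22, 0.21, 0.57 and 1.91 in Tlr7/9 KO. Aurka, the spindle pole kinase, was low late only in Tlr7/9 KO at 24 h and Tlr9 KO at 42 h, and rose by 2.12 ± 0.60 at 24 h (adjusted p = 0.0147) and 2.52 ± 0.60 at 42 h (adjusted p = 0.00861). Plk1 read -0.16, -0.13, 1.96 and 3.90 in WT, 0.09, 0.01, 1.69 and 3.87 in Tlr7 KO, -0.02, 0.00, 3.58 and 1.21 in Tlr9 KO and 0.20, 0.07, 0.39 and 2.67 in Tlr7/9 KO. Plk1, the kinase that acts from mitotic entry to abscission, rose by 2.44 ± 0.70 at 24 h (adjusted p = 0.0165) and 3.03 ± 0.70 at 42 h (adjusted p = 0.00784). Birc5 measured -0.08, -0.14, 3.24 and 4.66 in WT, 0.50, 0.14, 3.04 and 5.15 in Tlr7 KO, -0.11, 0.27, 4.69 and 1.90 in Tlr9 KO and 0.13, 0.68, 1.20 and 3.90 in Tlr7/9 KO. Birc5 is survivin, a subunit of the passenger complex, and it had the largest fitted difference of all members at both times, 3.55 ± 0.74 at 24 h (adjusted p = 0.00309) and 3.80 ± 0.74 at 42 h (adjusted p = 0.00312). Its WT 42 h spot lies in the dim area, with Cy5 at 5390 against 38200 in Tlr7 KO. Without that area its 42 h difference was 3.28 ± 0.91 (adjusted p = 0.0203), below those of Ube2c (3.61), Ccna2 and Mki67 (3.49 each), Tpx2 (3.43), and Top2a and Kif20a (3.30 each). Its other probes gave 2.93 and 2.13 at 42 h.

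The passenger subunit borealin, Cdca8, rose by 2.48 ± 0.39 at 24 h (adjusted p = 0.000607) and 2.65 ± 0.39 at 42 h (adjusted p = 0.000648). Nek2 stood at 0.11, -0.19, 1.95 and 3.02 in WT, -0.13, -0.18, 2.07 and 3.39 in Tlr7 KO, -0.54, -0.38, 3.09 and 0.37 in Tlr9 KO and 0.20, -0.29, 0.62 and 2.23 in Tlr7/9 KO. Nek2, a kinase that parts the centrosomes, had the smallest 42 h difference of the group, with 2.56 ± 0.63 at 24 h (adjusted p = 0.00759) and 2.45 ± 0.63 at 42 h (adjusted p = 0.013). Aurkb read -0.02, 0.17, 0.02 and 0.10 in WT, 0.06, 0.14, 0.12 and 0.08 in Tlr7 KO, 0.04, 0.03, 0.09 and 0.08 in Tlr9 KO and -0.06, 0.08, 0.04 and -0.05 in Tlr7/9 KO. These values for the passenger complex kinase carry no level or fold, since neither colour was above background. The Aurkb probe holds 20% G and C, where the median over 72 probes of members was 41.7% and the lowest 18.3%. That lowest value is shared by the Cdk1 probe that represents its gene, above background in Cy5 on 8 arrays. Another Cdk1 probe, above background on no array, has it too. The part of base content in this was not tested.

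The spindle checkpoint holds the cell in metaphase until every kinetochore is attached. All 4 members rose at both times. Bub1 measured 0.00, -0.13, 2.62 and 3.61 in WT, 0.04, -0.17, 2.69 and 4.08 in Tlr7 KO, -0.01, -0.14, 3.81 and 1.23 in Tlr9 KO and 0.00, -0.17, 0.81 and 2.82 in Tlr7/9 KO. Bub1, a checkpoint kinase, stood at the pool until 6 h and was high in all 4 genotypes at 42 h, least so on the Tlr9 KO array. It rose by 3.03 ± 0.62 at 24 h (adjusted p = 0.00262) and 2.96 ± 0.62 at 42 h (adjusted p = 0.00437). Its pool signal was above background on none of the 16 arrays, and its Cy5 signal on 10. Bub1b stood at -0.21, -0.14, 2.76 and 0.61 in WT, -0.06, 0.02, 2.70 and 4.25 in Tlr7 KO, -0.09, -0.05, 3.79 and 1.47 in Tlr9 KO and -0.16, -0.29, 1.06 and 3.34 in Tlr7/9 KO. The WT 42 h value is far below that of Tlr7 KO. Its spot lies in the dim area of that array, with a Cy5 signal of 112 against 5490 on the Tlr7 KO 42 h array. Bub1b (BubR1) rose by 3.20 ± 0.67 at 24 h (adjusted p = 0.00306) and 2.23 ± 0.67 at 42 h (adjusted p = 0.026), and by 2.90 ± 0.73 at 42 h without the spots of the dim area. Ttk read -0.31, 0.02, 1.22 and 1.38 in WT, -0.14, 0.12, 0.79 and 1.59 in Tlr7 KO, -0.08, 0.13, 1.67 and 0.20 in Tlr9 KO and 0.01, -0.04, 0.15 and 0.86 in Tlr7/9 KO. Ttk, the kinase Mps1, had the smallest difference of the group, with 1.41 ± 0.34 at 24 h (adjusted p = 0.00679) and 1.23 ± 0.34 at 42 h (adjusted p = 0.0177), and bounds of at least 2.71-fold at 24 h and, above background on 2 of 3 arrays, at least 2.68-fold at 42 h in Cy5. Mad2l1 measured 0.24, -0.75, 1.84 and 2.61 in WT, 0.04, -0.59, 1.64 and 2.63 in Tlr7 KO, -0.04, -0.55, 2.31 and 0.63 in Tlr9 KO and -0.01, -0.54, 0.56 and 1.64 in Tlr7/9 KO. Mad2l1 encodes the checkpoint inhibitor of Cdc20, was below the pool at 6 h on all arrays and rose by 1.85 ± 0.44 at 24 h (adjusted p = 0.00605) and 1.88 ± 0.44 at 42 h (adjusted p = 0.00789). Its dimmer probes gave 1.04 and 1.0 at 42 h.

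Centromere and kinetochore proteins tie chromosomes to microtubules, and this group was the most uneven. Of 6 members 3 rose at 24 h and 4 at 42 h. Ndc80 stood at 0.06, -1.13, 0.94 and 2.17 in WT, 0.04, -1.31, 0.77 and 2.17 in Tlr7 KO, -0.04, -1.10, 1.61 and 0.23 in Tlr9 KO and 0.21, -0.30, 0.04 and 1.43 in Tlr7/9 KO. Ndc80, of the main microtubule-binding complex, was below the pool at 6 h on every array and above it at 42 h. It missed the threshold at 6 h (-1.20 ± 0.45, adjusted p = 0.0517) and at 24 h (1.08 ± 0.45, adjusted p = 0.0729), and passed at 42 h with 1.5 ± 0.45 (adjusted p = 0.0254). Its partners Nuf2 and Spc25 rose by 2.81 ± 0.63 (adjusted p = 0.00646) and 1.76 ± 0.47 (adjusted p = 0.016) at 42 h, though both other Nuf2 probes were above background on no array. Cenpe read 0.33, -0.81, 2.15 and 4.39 in WT, 0.12, -0.68, 2.12 and 4.16 in Tlr7 KO, -0.09, -0.57, 3.78 and 1.28 in Tlr9 KO and 0.38, -0.60, 0.66 and 2.68 in Tlr7/9 KO. The kinetochore motor Cenpe was below the pool at 6 h on every array and had the largest 42 h difference of the group, with 2.56 ± 0.74 at 24 h (adjusted p = 0.0169) and 3.16 ± 0.74 at 42 h (adjusted p = 0.00829).

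Cenpf measured 0.26, 0.16, 0.44 and 0.54 in WT, 0.40, 0.17, 0.34 and 0.65 in Tlr7 KO, 0.34, 0.34, 0.80 and 0.14 in Tlr9 KO and 0.30, 0.45, 0.48 and 0.43 in Tlr7/9 KO. Cenpf, a protein of the outer kinetochore, stayed within 0.80 of the pool on every array and passed at neither time, with 0.19 ± 0.16 at 24 h (adjusted p = 0.36) and 0.11 ± 0.16 at 42 h (adjusted p = 0.622). Its pool signal was above background on none of the 16 arrays. Cenpa stood at -0.13, -1.83, -0.70 and 1.69 in WT, -0.04, -1.76, -0.75 and 2.02 in Tlr7 KO, -0.25, -0.43, 1.27 and -0.45 in Tlr9 KO and -0.01, -0.64, -0.05 and 1.13 in Tlr7/9 KO. Cenpa is the histone H3 variant of the centromere. WT and Tlr7 KO were far below the pool at 6 h and still below it at 24 h, Tlr9 KO and Tlr7/9 KO were less far below it at 6 h, and only the 42 h arrays of WT, Tlr7 KO and Tlr7/9 KO and the Tlr9 KO 24 h array were high. Its differences of 0.08 ± 0.73 at 24 h (adjusted p = 0.943) and 1.22 ± 0.73 at 42 h (adjusted p = 0.226) did not pass in the fit with the Tlr9 KO arrays. On single arrays, 42 h less 0 h was 1.81 in WT, 2.05 in Tlr7 KO and -0.20 in Tlr9 KO. The WT 42 h spot lies in the dim area, with Cy5 at 541 against 10800 in Tlr7 KO, and without that area the 42 h difference was 0.73 ± 0.90.

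Genes of chromosome structure include Mki67, which coats mitotic chromosomes, Top2a, which untangles DNA, and the condensins that compact it. Of 7 members 5 rose at 24 h and 6 at 42 h. Mki67 read -0.36, -1.80, 2.11 and 4.54 in WT, 0.23, -1.69, 2.06 and 4.52 in Tlr7 KO, -0.14, -1.69, 4.0 and 1.13 in Tlr9 KO and -0.08, -1.81, 0.59 and 3.41 in Tlr7/9 KO. All genotypes were below the pool at 6 h, by nearly the same amount, and the second probe gave the same course. Mki67 rose by 2.81 ± 0.85 at 24 h (adjusted p = 0.0206) and 3.49 ± 0.85 at 42 h (adjusted p = 0.00988). Top2a measured -0.10, -0.03, 3.22 and 4.11 in WT, 0.13, -0.13, 2.94 and 4.12 in Tlr7 KO, 0.02, -0.15, 4.15 and 1.73 in Tlr9 KO and 0.00, -0.19, 1.37 and 3.13 in Tlr7/9 KO. Top2a stayed within 0.19 of the pool at 6 h, and rose by 3.42 ± 0.56 at 24 h (adjusted p = 0.00076) and 3.30 ± 0.56 at 42 h (adjusted p = 0.00143). Ncapd2 stood at 0.00, -1.06, 1.07 and 2.62 in WT, 0.04, -0.99, 0.90 and 2.68 in Tlr7 KO, 0.00, -0.80, 1.89 and 0.45 in Tlr9 KO and -0.05, -0.70, 0.30 and 1.74 in Tlr7/9 KO. Ncapd2, a condensin I subunit, was below the pool at 6 h on every array and passed at 42 h only, with 1.90 ± 0.52 (adjusted p = 0.0169). Smc4 read 0.19, -1.46, 0.12 and 1.12 in WT, 0.18, -1.30, -0.04 and 0.80 in Tlr7 KO, -0.06, -1.18, 0.53 and -0.36 in Tlr9 KO and -0.01, -1.13, -0.36 and 0.12 in Tlr7/9 KO. Smc4, a condensin ATPase, was far below the pool at 6 h in all genotypes and near it at 24 h. Its difference was -1.42 ± 0.32 at 6 h (adjusted p = 0.00465), a fall, and then 0.10 ± 0.32 at 24 h (adjusted p = 0.827) and 0.42 ± 0.32 at 42 h (adjusted p = 0.343), the smallest difference of the group. On single arrays, its 42 h value less that at 0 h was 0.93 in WT, 0.62 in Tlr7 KO and -0.31 in Tlr9 KO. Its partner Smc2 was above the pool at 6 h on every array (0.22 ± 0.38 against 0 h, adjusted p = 0.68) and rose by 1.64 ± 0.38 at 24 h (adjusted p = 0.00527) and 1.42 ± 0.38 at 42 h (adjusted p = 0.0151). Ncaph rose by 2.53 ± 0.43 at 24 h (adjusted p = 0.000932) and 2.56 ± 0.43 at 42 h (adjusted p = 0.00133). The Ncapg probe was above background in Cy5 on 5 arrays only, none of them at 0 h, and its pool signal on none. Its Cy5 level was at least 1.35-fold higher at 24 h and, above background on 2 of 3 arrays, at least 1.44-fold higher at 42 h. The fitted differences were 0.57 ± 0.19 at 24 h (adjusted p = 0.0351) and 0.60 ± 0.19 at 42 h (adjusted p = 0.0367).

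Spindle assembly factors and motors build the spindle and move chromosomes on it. Of 8 members 7 rose at 24 h and 6 at 42 h. Kif11 measured -0.15, 0.06, 1.94 and 3.34 in WT, 0.15, -0.18, 2.01 and 3.57 in Tlr7 KO, 0.03, 0.16, 3.57 and 1.09 in Tlr9 KO and -0.01, 0.15, 0.75 and 2.76 in Tlr7/9 KO. Kif11, the motor that pushes the poles apart, rose by 2.50 ± 0.64 at 24 h (adjusted p = 0.00885) and 2.66 ± 0.64 at 42 h (adjusted p = 0.00898). Tpx2 stood at -0.11, -0.20, 2.67 and 4.34 in WT, 0.06, -0.25, 2.59 and 4.38 in Tlr7 KO, 0.03, -0.02, 3.81 and 1.54 in Tlr9 KO and 0.18, -0.27, 0.77 and 2.99 in Tlr7/9 KO. Tpx2, which activates Aurka on the spindle, had the largest 42 h difference of the group, with 3.03 ± 0.66 at 24 h (adjusted p = 0.00385) and 3.43 ± 0.66 at 42 h (adjusted p = 0.00286). Hmmr read 0.29, 0.00, 0.34 and 0.15 in WT, 0.05, -0.07, 0.36 and 2.11 in Tlr7 KO, -0.08, 0.24, 1.45 and 0.15 in Tlr9 KO and -0.08, -0.16, -0.01 and 1.11 in Tlr7/9 KO. Hmmr, a spindle pole protein, was high at 42 h in Tlr7 KO and Tlr7/9 KO and at 24 h on the Tlr9 KO array. Its WT 42 h spot lies in the dim area, with Cy5 at 54.9 against 6210 in Tlr7 KO, and its difference passed at neither time, with 0.63 ± 0.48 at 24 h (adjusted p = 0.317) and 0.72 ± 0.48 at 42 h (adjusted p = 0.28). Ckap2, a microtubule protein, read -0.08 on the WT 42 h array and 2.31 in Tlr7 KO, with Cy5 at 49.3 against 874. It rose by 2.12 ± 0.44 at 24 h (adjusted p = 0.00294). At 42 h it did not pass with all spots (0.92 ± 0.44, adjusted p = 0.134) and did without those of the dim area (1.38 ± 0.47, adjusted p = 0.0459). The chromosome motor Kif22 rose by 2.82 ± 0.45 at 24 h (adjusted p = 0.000628) and 2.96 ± 0.45 at 42 h (adjusted p = 0.000739). Nusap1, which bundles microtubules at the chromosomes, rose by 2.47 ± 0.80 at 24 h (adjusted p = 0.0281) and 2.78 ± 0.80 at 42 h (adjusted p = 0.0214). Kif2c, a motor that takes microtubules apart, rose by 1.38 ± 0.48 at 24 h (adjusted p = 0.0392) and 1.84 ± 0.48 at 42 h (adjusted p = 0.0144), or at least 2.94-fold and at least 4.76-fold in Cy5. Dlgap5, which stabilises spindle fibres, rose by 1.5 ± 0.38 at 24 h (adjusted p = 0.0086) and 1.53 ± 0.38 at 42 h (adjusted p = 0.0105).

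Cytokinesis genes build the midzone between the parting chromosomes and the ring that cleaves the cell. All 6 rose at both times. Kif20a measured 0.02, 0.01, 2.18 and 3.81 in WT, -0.06, 0.05, 1.82 and 3.80 in Tlr7 KO, -1.16, 0.03, 3.58 and 1.08 in Tlr9 KO and 0.15, -0.12, 0.64 and 2.94 in Tlr7/9 KO. Kif20a, a midzone motor, had the largest 42 h difference of the group, 2.93 ± 0.70 at 24 h (adjusted p = 0.00631) and 3.30 ± 0.70 at 42 h (adjusted p = 0.00478). Its low value on the Tlr9 KO 0 h array enters these differences. On single arrays, 42 h less 0 h was 3.78 in WT, 3.86 in Tlr7 KO and 2.24 in Tlr9 KO. Nuf2 (-0.99), Anln (-0.97) and Ube2c (-0.83) were also low on that 0 h array. Prc1 stood at -0.07, -0.14, 1.91 and 3.30 in WT, 0.25, -0.04, 1.86 and 3.18 in Tlr7 KO, 0.06, -0.32, 2.88 and 0.88 in Tlr9 KO and 0.24, -0.31, 0.27 and 2.43 in Tlr7/9 KO. Prc1 bundles the midzone microtubules, was at the pool until 6 h and rose by 2.14 ± 0.54 at 24 h (adjusted p = 0.00885) and 2.37 ± 0.54 at 42 h (adjusted p = 0.00722). Ect2 read 0.23, -0.08, 1.93 and 2.93 in WT, 0.11, -0.09, 2.02 and 3.19 in Tlr7 KO, 0.19, -0.17, 3.01 and 0.83 in Tlr9 KO and 0.01, -0.04, 0.62 and 2.06 in Tlr7/9 KO. Ect2, the exchange factor that switches on RhoA at the cleavage site, rose by 2.15 ± 0.53 at 24 h (adjusted p = 0.00753) and 2.14 ± 0.53 at 42 h (adjusted p = 0.0107). With every spot kept, its 42 h difference was the smallest of the group. For Kif23 and Racgap1, which form centralspindlin, and for Anln, the anillin scaffold of the contractile ring, the 42 h differences were 2.18 ± 0.68, 2.46 ± 0.64 and 2.61 ± 0.58. Without the dim area, where the WT 42 h spot of Racgap1 lies, its difference was 2.08 and did not pass (adjusted p = 0.0737).

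At 6 h the group as a whole had not risen, and single members moved in both directions. With all 3 genotypes, Mybl2 rose and Cdc25b and Smc4 fell at 6 h, where 22.9% of all genes rose and 23.9% fell. Smc4 did not pass with median centring, Mybl2 did not with processed signals (adjusted p = 0.0579), and Cdc25b passed with both. Without the WT arrays Cdc25b and Smc4 passed and Mybl2 did not (adjusted p = 0.0978), and without the Tlr7 KO arrays Cdc25b alone passed. The median difference of the members was -0.06, and 0.03 with median centring in place of loess, where rises made up 75.7% of all genes' calls in place of 49%. Without the 24 h and 42 h arrays of Tlr9 KO, the fit gave 6 rises and 17 falls, where 27.4% of genes rose and 28.4% fell. The rises were Mybl2, Foxm1, Cdca8, Cdc20, Melk and Aurka, from 0.41 ± 0.09 (Aurka) to 1.24 ± 0.27 (Mybl2). The falls were Cdc25b, Mki67, Smc4, Cenpa, Ndc80, Ncapd2, Ccna2, Cenpe, Mad2l1, Nusap1, Pttg1, Kif23, Ube2c, Cdca3, Ccnb2, Ect2 and Ncaph. Among these were the proliferation marker Mki67 (-1.63 ± 0.13, adjusted p = 1.19e-05) and Ccna2 (-0.88 ± 0.10, adjusted p = 0.000131). Without any Tlr9 KO array, 20 members passed, 6 higher and 14 lower (27.4% and 29.9% of genes). With all 3 genotypes, 3 of the 51 members passed where 46.8% of all genes did, well below that share. Without the late Tlr9 KO arrays, or without any, the falls lay near the share of all genes and the rises below it. No rise or fall of the list as a whole is read from these counts.

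On single arrays, in all 4 genotypes 22 of the 51 members were lower at 6 h than at 0 h, where 30.7% of all genes were, and 3 (Cdc25b, Mki67 and Smc4) were at least 2-fold lower in all 4, where 6.26% of genes were. Set against those shares of all genes, nothing is read from these counts about the list as a whole. Mybl2 and Cenpa split by slide at 6 h. Mybl2 was at 1.87 and 1.90 on slide 1 and at 0.47 and 0.57 on slide 2, and Cenpa at -1.83 and -1.76 against -0.43 and -0.64, and neither difference between slides was tested for 6 h alone.

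**Figure D4:**
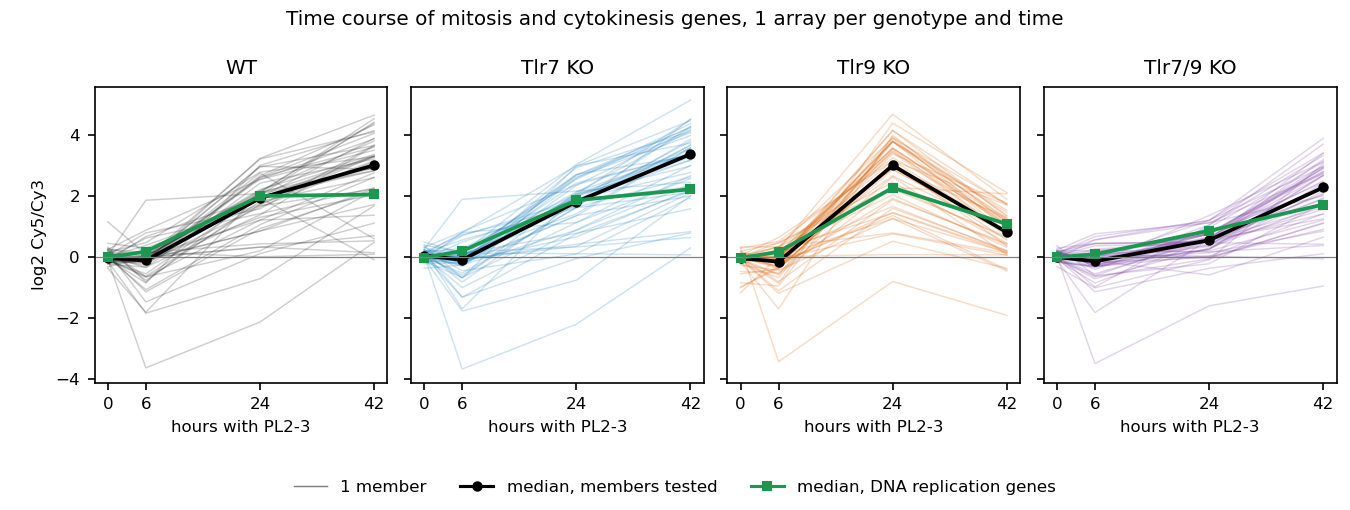
Log2 ratio (y axis) of each member (thin lines) by hours with PL2-3 (x axis) in the 4 genotypes, with the median of 51 members (black circles) and of 36 DNA replication genes (green squares). From 24 to 42 h the member median climbs in WT, Tlr7 KO and Tlr7/9 KO and drops on the Tlr9 KO arrays, and the replication median is nearly level in WT.

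From 24 to 42 h the genotypes parted. The median difference over the 52 members, 42 h minus 24 h, was 1.12 in WT, 1.47 in Tlr7 KO and 1.73 in Tlr7/9 KO. There 48, 51 and 50 members were higher, where 52%, 49% and 49.1% of all genes were. Between the arrays labelled Tlr9 KO the median was -2.11, with 0 members higher, where 51.6% of genes were. All 52 were lower, 47 of them at least 2-fold, where 2.32% of genes were. The 52 include Aurkb (-0.01), whose probe was not above background. With 1 array each, these differences between genotypes were not tested. In 46 of the 51 members tested the Tlr9 KO value was lower at 42 h and all 3 other genotypes were higher, where 10.7% of all genes did so. The 5 others were Bub1b, Cenpf, Ckap2, Hmmr and Pbk. On the array labelled Tlr9 KO 24 h all 51 members were above the other 24 h arrays (23% of genes), and on that labelled Tlr9 KO 42 h 48 were below the other 42 h arrays (26.9% of genes).

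With the Tlr9 KO arrays in the fit, no member passed for 42 h against 24 h by limma (1 at an unadjusted p under 0.05), where 2.1% of genes rose and 3.57% fell. With median centring, Ckap2, whose WT 42 h spot lies in the dim area, was lower (-1.56 ± 0.48, adjusted p = 0.0427), and rises made up 0.938% of all genes' calls in place of 37%. In WT and Tlr7 KO alone 45 members rose, where 13.5% of genes rose, with a median of 1.21. With Tlr7/9 KO in place of Tlr9 KO in the 3-genotype fit, 18 members rose and none fell, where 0.577% of genes rose. Ube2c (2.81 ± 0.31, adjusted p = 0.0193), Mki67 (2.57 ± 0.30, adjusted p = 0.026) and Ccnb2 (2.31 ± 0.26, adjusted p = 0.0193) led them. The late rise in WT and Tlr7 KO was steepest for Ube2c (2.65 ± 0.14, adjusted p = 4.27e-05), Cenpa (2.58 ± 0.11, adjusted p = 2.37e-05), Cdc25b (2.55 ± 0.11, adjusted p = 2.05e-05), Mki67 (2.45 ± 0.16, adjusted p = 7.83e-05) and Ccnb2 (2.24 ± 0.13, adjusted p = 6.73e-05). The WT 42 h spot of Cenpa lies in the dim area, and in Tlr7 KO alone its 42 h value was 2.77 above that at 24 h. The rise was shallow for Mybl2 (0.51 ± 0.14, adjusted p = 0.0316) and Melk (0.63 ± 0.13, adjusted p = 0.00955), and Pbk did not pass (0.26 ± 0.16, adjusted p = 0.271). On its second probe Mybl2 went from 2.98 to 2.67 in WT and from 2.69 to 3.05 in Tlr7 KO. The fit of WT and Tlr7 KO alone has 3 residual degrees of freedom. Its p-values set the time difference against how far 2 genotypes on 1 slide differ.

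DNA replication genes, whose products copy the genome before mitosis, set the members' timing in context. Of 36 tested, 32 rose at 24 h and 31 at 42 h, where 22.7% and 17.3% of all genes rose. Their medians were 2.07 and 1.77. Between 24 and 42 h their median changed by 0.07 in WT, 0.32 in Tlr7 KO, 0.91 in Tlr7/9 KO and -1.13 on the Tlr9 KO arrays, each nearer 0 than that of the mitosis genes. Of 68 other division genes tested, 52 rose at 24 h and 52 at 42 h, to be set against the same shares of all genes. Pif1, a DNA helicase, fell at 24 h (-0.76 ± 0.16, adjusted p = 0.00286), where 26% of genes fell. The largest 42 h differences among them were those of Cdca5, which protects cohesin (3.78 ± 0.36), Shcbp1 (3.74 ± 0.64) and Sgo1, a guardian of centromere cohesion (3.47 ± 0.65). The lowest were those of Pif1 (-0.28 ± 0.16), Mis12 (0.01 ± 0.15) and Ncaph2 (0.29 ± 0.24), none of which passed.

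A further comparison asks how far these genes rose in cells that lack both receptors. On the Tlr7/9 KO 24 h array 48 of the 51 members were below all 3 other 24 h arrays, where 33.2% of all genes were, and Cdc25b, Cenpa and Cenpf were not. Its members were a median of 0.46 above their own 0 h level, against 1.83 in WT, 1.71 in Tlr7 KO and 3.06 in Tlr9 KO as labelled. Of the 52 members 6 were at least 2-fold higher, where 3.79% of all genes were. The counts were 40 in WT (9.19% of genes), 40 in Tlr7 KO (9.13%) and 47 in Tlr9 KO (10.4%). Top2a was at 1.37 against 3.22 and 2.94, Mki67 at 0.59 against 2.11 and 2.06, and Ube2c at -0.08 against 2.03 and 1.63. At 42 h 46 of the 51 were below both WT and Tlr7 KO, where 39% of genes were. By then, however, 44 of 52 were at least 2-fold above 0 h, where 6.32% of genes were. Mki67 read 3.41 there against 4.54 in WT, and Cenpe 2.68 against 4.39. B cell markers had a median of -1.48 on the Tlr7/9 KO 24 h array and of -2.43 to -2.18 on the other 24 h arrays, and their part in this difference was not tested.

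**Figure D5:**
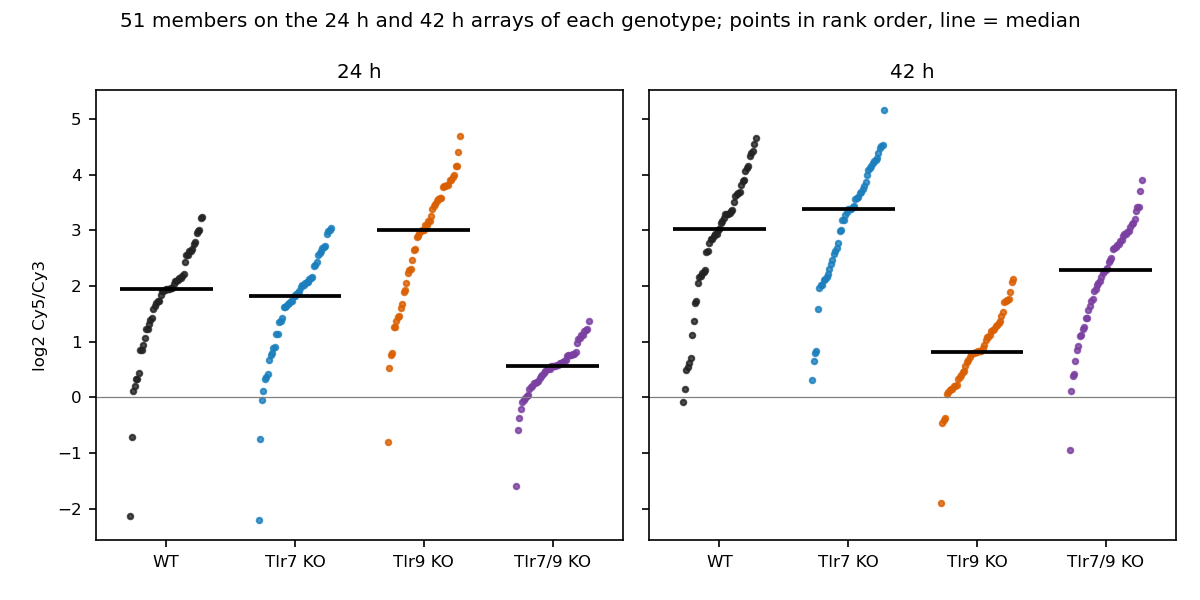
Log2 ratio (y axis) of 51 members on the 24 h (left) and 42 h (right) arrays of each genotype, points in rank order and black lines at the median. The Tlr7/9 KO median is lowest at 24 h (0.56) and below WT and Tlr7 KO at 42 h (2.29 against 3.02 and 3.38), and the Tlr9 KO median is highest at 24 h (3.01) and lowest at 42 h (0.82).

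Against the other 3 genotypes at 24 and 42 h, the Tlr7/9 KO difference had a median of -0.85 over the members and 0.00 over all genes, and no member passed limma's adjusted threshold (1 at an unadjusted p under 0.05), where 0.0184% of genes passed. Over 6 to 42 h the median was -0.58, with no member called (1 at an unadjusted p under 0.05) and 1.32% of genes called (70.6% of these calls rises, 16.4% with median centring and 25% with processed signals), and the lowest adjusted p was that of Mybl2 (0.122). The median over 6 to 42 h was -0.07 without the 24 h arrays and -0.93 without the 42 h arrays. With slide as a block, Tlr7/9 KO is compared within slide 2, where only Tlr9 KO stands beside it. That estimate is the same as Tlr7/9 KO against Tlr9 KO and rests on the arrays labelled Tlr9 KO. Its medians were -0.48 at 24 and 42 h and -0.34 over 6 to 42 h, with no member called. Without the Tlr9 KO arrays, 33 members were lower in Tlr7/9 KO than in WT and Tlr7 KO at 24 and 42 h, where 2.58% of genes were lower, with a median of -1.08. Among them were Ube2c (-1.66 ± 0.18, adjusted p = 0.0169), Tpx2 (-1.62 ± 0.15, adjusted p = 0.0153), Cenpe (-1.54 ± 0.11, adjusted p = 0.0124), Ccnb1 (-1.54 ± 0.17, adjusted p = 0.0177), Plk1 (-1.32 ± 0.12, adjusted p = 0.0152), Mki67 (-1.31 ± 0.13, adjusted p = 0.016) and Ndc80 (-0.77 ± 0.11, adjusted p = 0.0268). That comparison runs between slides, and with 6 arrays it has 2 residual degrees of freedom, so the genotype and the slide cannot be told apart in it.

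By role the members called lower there were spread over every group, where 2.58% of all genes were lower. The counts were 3 of 10 for entry (Ccnb1, Ccnb2 and Cdk1), 4 of 5 for anaphase and 5 of 5 for the kinases. For the checkpoint they were 2 of 4, for the kinetochore 3 of 6 and for chromosome structure 5 of 7. For the spindle they were 5 of 8 and for cytokinesis 6 of 6. Foxm1, Melk and Pbk did not pass (-0.55 ± 0.18, -0.89 ± 0.37 and -1.40 ± 0.39). Mybl2 did not pass either at 24 and 42 h (-0.82 ± 0.16, adjusted p = 0.0503), but over 6 to 42 h it passed as lower (-0.98 ± 0.14, adjusted p = 0.0133). It was 1 of 6 members lower over 6 to 42 h, with Ube2c, Aurka, Cdc20, Racgap1 and Dlgap5, where 3.07% of genes were lower.

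Loss of a single receptor gave no call among the members. Tlr7 KO against WT had a median of 0.01 at 24 and 42 h and of 0.01 over 6 to 42 h, with no member at an unadjusted p under 0.05 in limma and 0.0046% and 0.00436% of genes called. Mki67 read 4.54 and 4.52 at 42 h in WT and Tlr7 KO, Plk1 3.90 and 3.87, and Cdc20 3.68 and 3.67. Others outside the dim area lay further apart, such as Nusap1 (3.17 and 4.29), Melk (3.30 and 3.74) and Mybl2 (2.84 and 2.46). Both genotypes lie on the same slide. Tlr9 KO against WT had a median of -0.59 at 24 and 42 h and -0.37 over 6 to 42 h, with no member called (0 and 1 at an unadjusted p under 0.05) and 0.0322% and 0.0566% of genes called. Those values average a higher 24 h and a lower 42 h array: over 6 to 42 h the median was 0.53 without the 42 h arrays (50 of 51 members above 0) and -1.08 without the 24 h arrays (3 of 50 above 0). Tlr7/9 KO against Tlr9 KO, on 1 slide, had medians of -0.48 at 24 and 42 h and -0.34 over 6 to 42 h, with no member called in limma (0 at an unadjusted p under 0.05 in either) and 0.023% and 0.0436% of genes called. Its direction turned with the late arrays kept: over 6 to 42 h the median was 0.69 without the 24 h arrays (50 of 50 members above 0) and -1.22 without the 42 h arrays (0 of 51). When each genotype's 0 h array was taken off, the Tlr7/9 KO response differed from that of the others by a median of -0.56 (-0.08 without the 24 h arrays), with no member called (0 at an unadjusted p under 0.05) and 0.0384% of genes called.

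Probes of a member mostly gave the same course at a lower height when dimmer. Foxm1, Tpx2, Ect2 and Kif23 each had a second probe with smaller differences at 42 h (0.74, 0.69, 0.42 and 0.27) than their brightest, all with mean brightness near background. Probes of Mki67 (3.49 and 3.37) and of Kif2c (1.84 and 1.97) lay close together. The second Cdca8 probe, in the dim area of the WT 42 h array, read -0.16 there and 3.33 in Tlr7 KO, while its bright probe outside that area read 3.51 and 3.39.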

How the data were processed

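Sample RNA (Cy5) of 16 groups, 1 array each, was read against a common pool (Cy3), per the labels, with no dye swap. Per the file headers, Agilent Feature Extraction 10.1.1.1 read the images, on a design annotated on mm9. The deposited intensity values are the mean foreground and median local background of each colour, and processed signals that Feature Extraction had background-subtracted, detrended and dye-normalized. The authors' deposited series table holds log10 ratios of those processed signals. It was only compared with them and gives no result.

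With the packages limma 3.58.1 and data.table (version 1.17.8) in R 4.3.3, intensities were background-corrected (normexp, offset 50) and normalized within arrays (loess), to log2 of Cy5 over Cy3. Control spots were dropped, outlier spots were left blank, and spots of 1 probe were averaged. Probes were named through RefSeq tables (GRCm38) by accession, then symbol. Each gene stands for its brightest probe. Genes entered a fit where that probe, in Cy3 or Cy5, was well above background on 3 or more of the arrays compared.

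Differences were fitted with limma (lmFit, eBayes), 2-sided, with Benjamini-Hochberg adjustment over all genes tested and a threshold of 0.05. Time differences used 12 arrays of WT, Tlr7 KO and Tlr9 KO with a genotype term (6 residual degrees of freedom). Genotype differences used the stimulated arrays with a time term. All comparisons with 0 h share the 0 h arrays. For a probe not above background at 0 h, "at least" folds set the mean normalized Cy5 against, per array, the higher of its own signal and the lowest signal well above background. Fits were tested on simulated data.

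The members, roles and lists were chosen with earlier results of these data known. Values on every array are given for 28 members by rule and for the highest and lowest member of each role at 42 h. Cenpa was added after its values were seen. Alternatives were median centring, processed signals, no filter, mean over probes, each genotype or time left out and slide as a block. Leaving out the dim area or the late Tlr9 KO arrays, and WT, Tlr7 KO and Tlr7/9 KO together, were added after seeing the data. The number of arrays limits the precision.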

Additional observations from a re-analysis of the deposited data

Results flagged for a closer look

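The median change of the 52 mitosis and cytokinesis genes from 24 to 42 h had opposite signs in different genotypes. It was 1.12 on the log2 scale in WT, 1.47 in Tlr7 KO and 1.73 in Tlr7/9 KO, and -2.11 between the arrays labelled Tlr9 KO. With 1 array for each genotype and time, the difference was not tested.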

How the results depend on the processing

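The number of members called was within 1.5 times the value reported in 96 cases where a comparison was run with another setting, and not in the 13 that follow. At 24 h it was 24 without WT (42 in the report). At 42 h it was 7 without WT and 8 without Tlr7 KO (44 in the report). From 24 to 42 h it was 1 with median centring, 45 without Tlr9 KO, 43 without the late Tlr9 KO arrays and 18 with WT, Tlr7 KO and Tlr7/9 KO (0 in the report). At 6 h it was 1 without Tlr7 KO, 20 without Tlr9 KO, 23 without its late arrays and 11 with WT, Tlr7 KO and Tlr7/9 KO (3 in the report). For Tlr7/9 KO against the other genotypes without Tlr9 KO it was 33 at 24 and 42 h and 6 over 6 to 42 h (0 in the report). With fewer genotypes the fits have fewer arrays and residual degrees of freedom. Otherwise the cause was not tested. Slide as a block was run for Tlr7/9 KO against the other genotypes only, where no member was called with or without it. With that block the estimate is that of Tlr7/9 KO against Tlr9 KO, so it is no separate check. Through all 11 alternatives, 23 of 42 members kept their call at 24 h, Cdc25b did at 6 h, and Ccna2, Cdca8, Kif22, Melk, Mybl2, Ncaph and Top2a did at 42 h.

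The median over the members moved by more than the spread between genotypes in 6 cases. At 24 h it was 2.98 with median centring and 1.35 with WT, Tlr7 KO and Tlr7/9 KO (2.15 in the report). At 6 h it was 0.03 with median centring, -0.38 with processed signals, -0.17 without Tlr9 KO and -0.16 with WT, Tlr7 KO and Tlr7/9 KO (-0.06 in the report). Over 6 to 42 h the median of Tlr7/9 KO against Tlr9 KO turned from -0.34 to 0.69 without the 24 h arrays, and that of Tlr9 KO against WT from -0.37 to 0.53 without the 42 h arrays. For Tlr7 KO against WT the median lay between -0.12 and 0.08 in every setting.

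Single members' differences from 0 h at 24 and 42 h turned in sign only where they had not passed. At 24 h these were Cenpa (-0.12 with processed signals, -0.65 without Tlr9 KO, -0.39 without its late arrays, -0.45 with WT, Tlr7 KO and Tlr7/9 KO), Pttg1 (-0.09, -0.01 and -0.31 in the last 3 of these) and Smc4 (-0.14, -0.07 and -0.21 likewise, and -0.01 with Tlr7/9 KO added to the fit). At 42 h it was Cdc25b (0.41 without Tlr9 KO, 0.39 without its late arrays). No paired analysis was possible because each group has 1 array and the labels give no replicate numbers. Signal near background limits Aurkb, Cdk1, Cdc25c, Pbk, Ttk, Ncapg and Kif2c, not above it in Cy5 on any 0 h array, and Bub1 and Cenpf, whose pool was above it on no array.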
